A study of Homo sapiens with 6 samples.

Results

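The genes described here encode the enzymes of glycolysis, the pyruvate dehydrogenase complex, the tricarboxylic acid (TCA) cycle, the hexosamine pathway and the pentose phosphate pathway. A list of 52 such genes was matched by symbol to the deposited expression table, and 39 of the 10542 genes in the table were members. The other 13 (HK1, ALDOA, ALDOC, TPI1, PGK1, PGAM1, PKM, LDHB, PDK3, CS, SUCLG2, PGM1 and PGD) had no row and were not analysed here.

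The libraries came from DU145, an established human prostate cancer cell line. The 3 DU145-TFEB libraries were made from cells carrying a lentivirus that overexpresses TFEB, and the 3 DU145-vector libraries from cells carrying a blank lentivirus, so both groups had been transduced. TFEB is a transcription factor that switches on genes of lysosome biogenesis and autophagy. The comparison asks which genes differ in polyA RNA when TFEB is raised in this line. The labels do not say whether the replicates are separate cultures or clones, so p-values measure the spread between these libraries, which may be technical.

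The DU145-TFEB libraries were covered by 13999961 to 16511477 reads over the genes in the table, against 14217130 to 14776019 for DU145-vector. TFEB itself stood at 6325, 6301 and 6036 normalized counts in DU145-TFEB and at 127, 124 and 125 in DU145-vector, a log2 fold change of 5.62 (SE 0.075, limma, adjusted p = 3.18e-10). A normalized count is the number of reads on a gene divided by a size factor of its library. Every gene in the table carried a deposited adjusted p-value below 0.05, so the table is a selection made on these same libraries. Accordingly, 100% of the listed genes passed an adjusted p below 0.05 in the present fit (limma, Benjamini-Hochberg adjustment over all listed genes) and 99.3% had groups that did not overlap. Of 12 markers of prostate carcinoma and other cells, 4 had a row. The epithelial keratins KRT8, KRT18 and KRT19 were lower in DU145-TFEB, with log2 fold changes of -0.68, -0.78 and -0.38, and their part in the results below was not tested.

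Glycolysis splits glucose into pyruvate in the cytosol, and its flux is set mainly at hexokinase and phosphofructokinase. Pyruvate either becomes lactate or enters mitochondria, where the pyruvate dehydrogenase complex turns it into the acetyl-CoA that feeds the TCA cycle. A side branch from fructose-6-phosphate, the hexosamine pathway, makes UDP-GlcNAc, the sugar donor for glycoproteins and for the O-GlcNAc mark that OGT adds to proteins and OGA removes.

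TFEB binds E-box sequences with the core CACGTG, most strongly within the longer CLEAR motif, of which TCACGTGA is the centre. Promoters from RefSeq (GRCh38.p14, 250 bases before to 50 after each start) were found for 36 of the 39 members, in 55 entries. The letters CACGTG, which read the same on both strands, occurred in 6 of the 36 genes (16.7%), against 8.77% of 27305 genes in the table of promoters. Per entry the shares were 10.9% of 55 and 7.26% of 35116. TCACGTGA, searched likewise, occurred in 0 of 36 members and 1.18% of all genes. These windows are shown because they hold every CACGTG whose window of 30 bases lay wholly within the 250 bases before a start. Each window of 30 bases is written 5′ to 3′ on the gene's strand with the E-box in capitals.
HK2 (chr2:74834964-74834993, plus strand, intron): gattgctgcgccCACGTGggagggagcccc
HK2 (chr2:74835009-74835038, plus strand, intron): ttccggcgagagCACGTGgagagaatcgtg
PFKFB3 (chr10:6202812-6202841, plus strand, intron): caccctcctcccCACGTGgaagggggctgg
GAPDH (chr12:6535171-6535200, plus strand, intron): gctctgcggggtCACGTGtcgcagaggagc
LDHA (chr11:18394366-18394395, plus strand, exon): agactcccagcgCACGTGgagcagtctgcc
LDHA (chr11:18394464-18394493, plus strand, exon): cagcccgactcaCACGTGggttcccgcacg
PDHB (chr3:58434051-58434080, minus strand, upstream of the gene): acaccgaccaggCACGTGtgcccagcgtgc
PGM2 (chr4:37826478-37826507, plus strand, upstream of the gene): aaacccttctcaCACGTGccaggttccagc

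The place given with each window is its position in the member's own gene in the GENCODE 29 annotation, in which other transcripts of a gene can start further upstream. A window is marked exon if any of its bases lie in an exon. The LDHA window that begins at 18394366 spans the start of the gene at 18394388, and its E-box lies upstream of that base. Of the 6 genes, GAPDH and PDHB were higher in DU145-TFEB and HK2, PFKFB3, LDHA and PGM2 were lower. The shorter letters ACGTG, the core of the hypoxia response element, lie within CACGTG and occurred on either strand in 18 of 36 members (50%) and in 24.9% of all genes, with 6 of the 18 higher and 12 lower. Per entry the shares of ACGTG were 40% of 55 and 21.4% of 35116. TGACNNNGC, the core of the antioxidant response element, occurred on either strand in 6 of 36 members (16.7%) and in 16.1% of all genes. All genes here are those with a promoter entry, whether expressed or not, and they were not matched to the members in promoter GC content. A match of letters is a description and not a binding site.

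Across the 39 members, 19 were higher and 20 lower in DU145-TFEB, each with an adjusted p below 0.05 (limma). Among all listed genes 47.6% were higher and 52.4% lower by the same rule, so the split of the members was close to that of the table. The median log2 fold change was -0.39 for the members and -0.36 for all listed genes. Differentially expressed genes (DEGs) also had to pass an absolute log2 fold change of 1.5. By this rule 1 member was higher, PGM5, where 2.54% of all listed genes were, and 3 were lower, UAP1, PGM3 and PDK1, where 16.5% were. A log2 fold change below -1 was found in 9 members and in 31.1% of all listed genes. The groups did not overlap in 38 members, the exception being PFKFB4, and in 99.3% of all listed genes. The median was -0.07 for the 12 glycolytic members, -0.80 for the 5 of pyruvate dehydrogenase, 0.28 for the 12 of the TCA cycle, -1.40 for the 8 phosphoglucomutase and hexosamine members and 0.63 for the 2 of the pentose phosphate pathway. The GC contents of their transcripts had medians of 56.0%, 42.6%, 48.3%, 42.7% and 56.5% in the same order. With the trend of fold change on GC content and length removed, as described below, these medians were -0.41, -0.16, -0.04, -0.67 and -0.03, so the TCA and pentose phosphate medians changed sign, and differences between pathways were not tested.

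**Figure D1:**
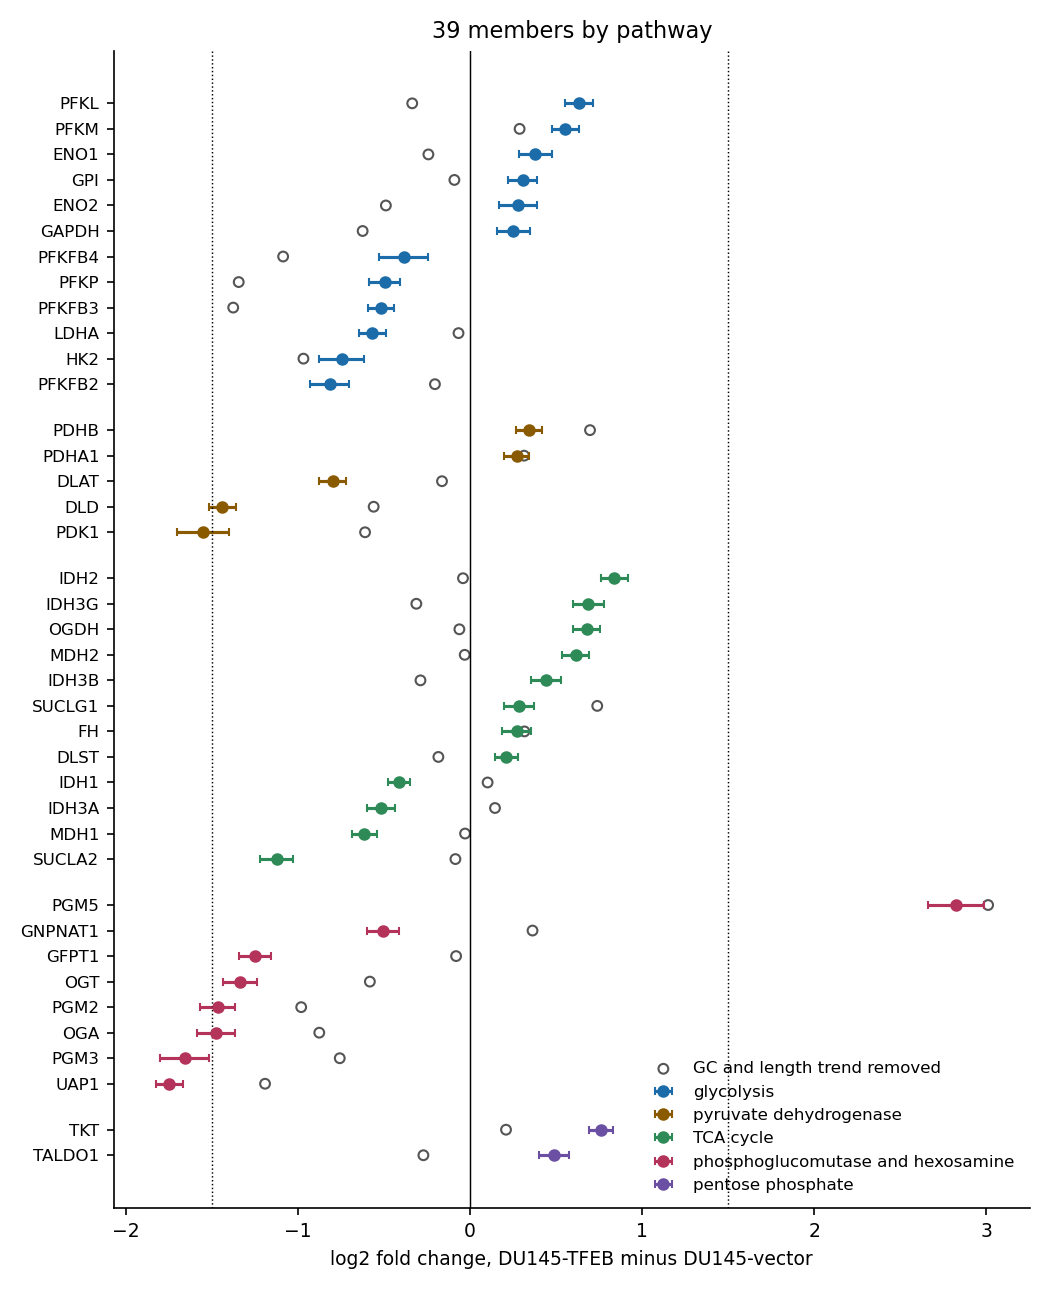
The log2 fold change of each member (x axis, DU145-TFEB minus DU145-vector, on log2 of the normalized count plus 1) is plotted by pathway, as filled points with SE bars and as open circles after the GC and length trend was removed, and dotted lines mark 1.5 in each direction. PGM5 stands alone at 2.83, and 7 of the 8 phosphoglucomutase and hexosamine members lie below 0, of which GNPNAT1 lies above 0 with the trend removed.

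Low transcript GC content went with lower counts in DU145-TFEB throughout the table, and the members followed the same pattern. Of 16 members with a GC content below 45%, 15 were lower, as were 95.3% of the listed genes in that class. Of 18 members with 50% GC or more, 14 were higher and 4 lower (HK2, PFKP, PFKFB3 and PFKFB4), while 8.9% of the listed genes in that class were lower. The 5 members between these limits were higher in 4 cases, where 70.4% of listed genes were lower. Spearman's rho between GC content and log2 fold change was 0.72 over the 39 members and 0.75 over 10537 listed genes, as a description across genes that share the same 6 libraries. This trend lies along the same contrast as the treatment, so the effect of TFEB and a difference between the groups in library GC cannot be told apart.

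Every member is therefore given a further value, its log2 fold change after a smooth trend against GC content and gene length had been removed from each library. On that scale the median was -0.18 for the members and -0.30 for all listed genes. 15 of the 39 members changed sign. With the trend removed 8 members were higher and 20 lower at an adjusted p below 0.05 (limma), beside 15.0% and 54.0% of listed genes.

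**Figure D2:**
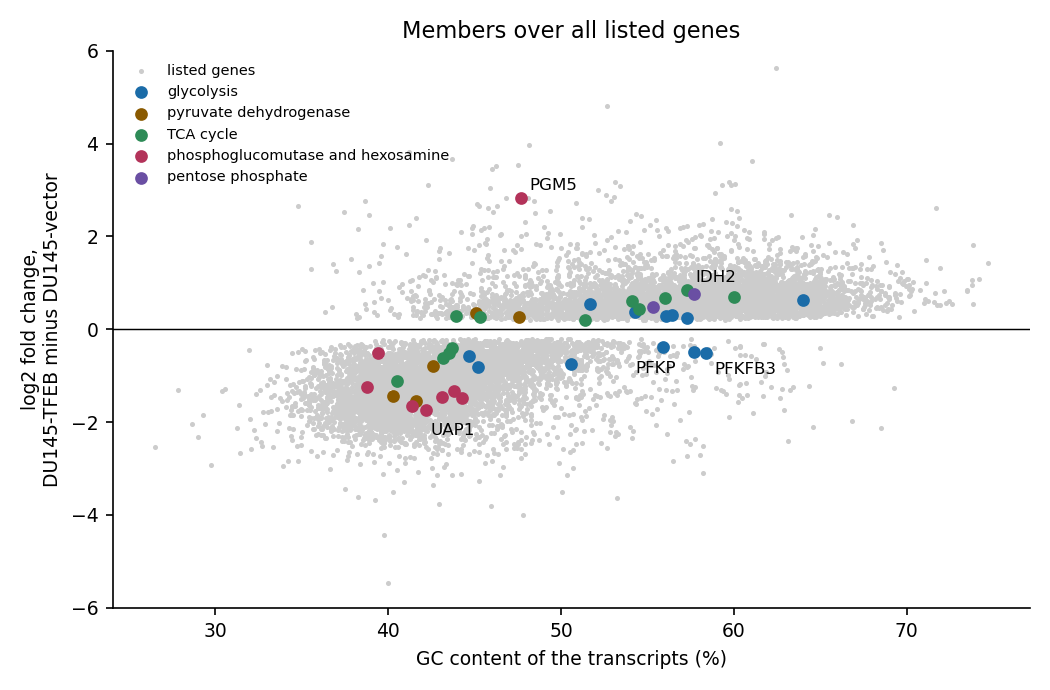
The log2 fold change (y axis, DU145-TFEB minus DU145-vector) is plotted against the GC content of the transcripts in percent (x axis), with all listed genes in grey and the members in the colours of their pathways. Genes below 45% GC lie mostly under 0 and genes above 50% mostly over it, and PFKP and PFKFB3 lie below the bulk of genes with like GC content.

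At the entry of glycolysis HK2 was lower and GPI higher, the latter not with the trend removed. HK2, the inducible hexokinase that traps glucose as glucose-6-phosphate, stood at 285, 352 and 307 normalized counts in DU145-TFEB and 561, 449.6 and 578 in DU145-vector. Each DU145-TFEB library lay below every DU145-vector library, with a log2 fold change of -0.74 (SE 0.131, limma, adjusted p = 4.80e-04) and of -0.97 with the trend removed. Under quantile normalization HK2 was at -0.30 with an adjusted p of 0.0737. GPI, which converts glucose-6-phosphate to fructose-6-phosphate, was higher at 0.31 and turned to -0.09 with the trend removed.

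Phosphofructokinase, the main control step of glycolysis, is a tetramer of liver (PFKL), muscle (PFKM) and platelet (PFKP) subunits, and the 3 genes did not move together. PFKP, the most abundant of them per length, counted 6973, 8435 and 6963 in DU145-TFEB and 10604, 9695 and 11193 in DU145-vector, a log2 fold change of -0.50 (SE 0.092, limma, adjusted p = 6.66e-04). PFKL counted 4284, 4718 and 4177 against 2865, 2598 and 3033, and PFKM 3186, 3296 and 2939 against 2261, 1982 and 2176. Neither gene's groups overlapped, and the log2 fold changes were 0.63 for PFKL and 0.55 for PFKM. PFKP was at -1.34 and PFKM at 0.29 with the trend removed, while PFKL turned to -0.34. Of the normalized counts per kilobase over the 3 genes, PFKP made up 78.1% ± 0.368 in DU145-vector but 62.5% ± 1.45 in DU145-TFEB (SD, n = 3 each, exact two-sided permutation p = 0.1, the smallest that 3 against 3 allows). PFKL rose from 11.4% ± 0.0913 to 20% ± 0.523 of the sum and PFKM from 10.5% ± 0.437 to 17.5% ± 0.968, in all 3 libraries each. PFKM shares 8.6% of its exon bases with SENP1 on the other strand, and the strand setting of the counting is not given in the sources used here.

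The PFKFB enzymes make and degrade the fructose bisphosphate that activates phosphofructokinase, and all 3 listed members were lower, except that PFKFB4 turned under quantile normalization. PFKFB3, the form whose kinase activity far exceeds its phosphatase activity, counted 1828, 1972 and 1762 against 2499, 2667 and 2787 in DU145-vector. Its log2 fold change was -0.52 (SE 0.076, limma, adjusted p = 1.63e-04) and it reached -1.38 with the trend removed, the lowest value of any member on that scale. PFKFB2, the heart form, counted 507, 464 and 612 against 947, 890.5 and 934, a log2 fold change of -0.82 that shrank to -0.20 with the trend removed (adjusted p = 0.0522). PFKFB4 counted 326, 306 and 270.0 against 405, 326 and 456, so the lowest vector library lay level with the highest DU145-TFEB library. Its log2 fold change of -0.39 (adjusted p = 0.0239, limma) had an adjusted p of 0.368 with DESeq2 and turned to 0.07 under quantile normalization, and was -1.09 with the trend removed. PFKFB4 also lost its call with edgeR, TMM and upper quartile scaling, and without DU145-TFEB replicate 3 (-0.31), DU145-vector replicate 1 (-0.36) or DU145-vector replicate 3 (-0.28), with an adjusted p of up to 0.108.

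The later steps of the pathway held GAPDH, the enolases and LDHA. GAPDH, which makes the NADH of glycolysis, counted 53996, 65170 and 50985 in DU145-TFEB and 49568, 45288 and 47412 in DU145-vector. ENO1, the widely expressed enolase, counted 56386, 67395 and 53044 against 46681, 42552 and 46170. The highest value of both genes was in DU145-TFEB replicate 2. GAPDH was higher by 0.25 (SE 0.097, limma, adjusted p = 0.0287) and ENO1 by 0.38 (SE 0.096, adjusted p = 0.00395), but both turned negative under quantile normalization (-0.35 and -0.14) and with the trend removed (-0.62 and -0.24). GAPDH lost its call without DU145-TFEB replicate 2 (0.15), DU145-vector replicate 2 (0.22) or DU145-vector replicate 3 (0.25), with an adjusted p of up to 0.0875, and also with the replicate block. GAPDH has 62 pseudogenes in GENCODE 29 and ENO1 has 4, so reads may be shared with copies, and 14.2% of the exon bases of GAPDH overlap the antisense gene AC006064.4. ENO2, the neuronal enolase, was higher by 0.28 and turned to -0.49 with the trend removed. The call of ENO2 was lost with library size scaling (0.23), and without DU145-TFEB replicate 1 or 3 or DU145-vector replicate 2. Without these libraries in turn it was at 0.30, 0.24 and 0.16, with an adjusted p of up to 0.0782 (limma).

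LDHA, which reduces pyruvate to lactate, was lower in each library of DU145-TFEB. It counted 7557, 9156 and 7996 against 12395, 11911 and 12182, a log2 fold change of -0.57 (SE 0.079, limma, adjusted p = 1.21e-04). Its value was -0.07 with the trend removed, with an adjusted p of 0.434. LDHB had no row, so the ratio of the lactate dehydrogenase subunits was not analysed here. LDHA has 6 pseudogenes in GENCODE 29.

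In the pyruvate dehydrogenase complex the subunits of the first enzyme were higher and those of the others were lower. PDHA1 and PDHB, the alpha and beta chains of the decarboxylase, rose by 0.27 and 0.34, from 1243 ± 26.5 to 1500 ± 70.0 normalized counts and from 1059 ± 11.7 to 1343 ± 65.8 (SD, n = 3). Both kept their direction with the trend removed, at 0.31 and 0.70. PDHA1 shares 21.3% of its exon bases with MAP3K15 on the other strand.

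DLAT, the acetyltransferase core, and DLD, the dihydrolipoamide dehydrogenase that also serves the oxoglutarate dehydrogenase complex, fell. DLD counted 844, 853 and 852 in DU145-TFEB and 2285, 2509 and 2136 in DU145-vector, a narrow DU145-TFEB group with a wide gap to the other. The log2 fold change of DLD was -1.44 (SE 0.080, limma) and that of DLAT -0.80 (SE 0.077), and with the trend removed they were -0.56 and -0.16. DLAT counted 1275, 1316 and 1408 against 2378, 2409 and 2171, again without overlap.

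PDK1 (chr2:172555373-172608669, GRCh38), the kinase that phosphorylates and inhibits the decarboxylase, was the DEG of this group. It counted 158, 132 and 188 in DU145-TFEB and 523, 436 and 439 in DU145-vector, 2.93-fold higher in the vector cells. The log2 fold change was -1.55 (SE 0.151, limma, adjusted p = 1.44e-05), and it was -0.61 with the trend removed and -1.31 with DESeq2, both below the DEG fold cutoff in size. Of the other kinases of the complex, PDK2, named after its values were seen, was higher, with 975, 1081 and 966 normalized counts against 743, 636 and 701. Its log2 fold change was 0.54 (limma, adjusted p = 4.10e-04), turning to -0.33 with the trend removed.

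**Figure D3:**
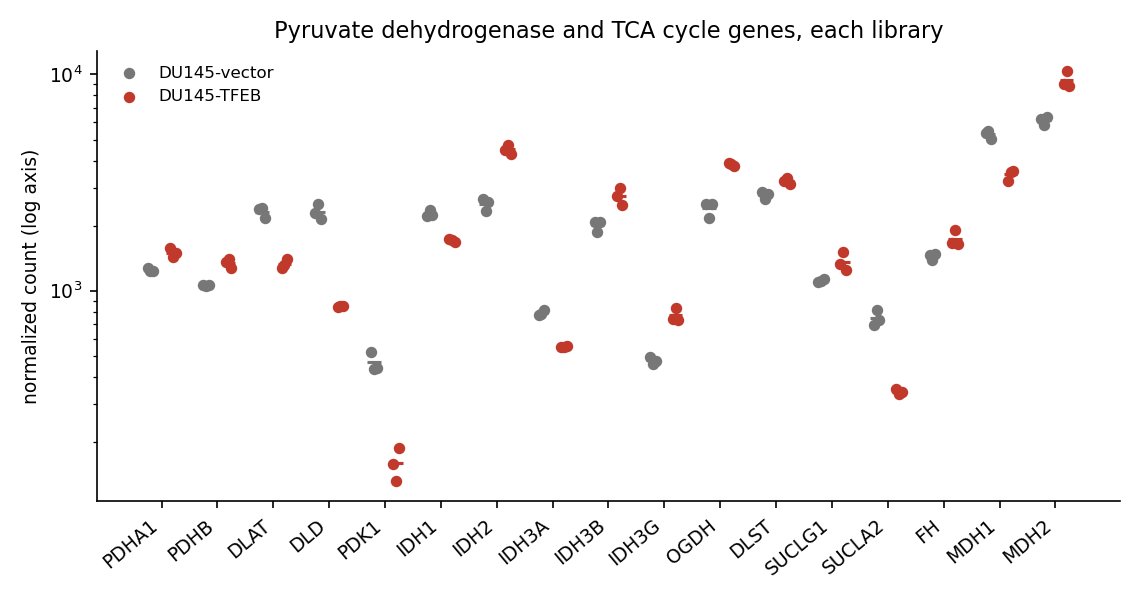
Normalized counts (y axis, log scale) are plotted for 17 pyruvate dehydrogenase and TCA cycle members in every library, grey for DU145-vector and red for DU145-TFEB, with a line at the mean of 3. The groups are apart in each gene, from PDK1 (132 to 188 in DU145-TFEB against 436 to 523) to MDH2 (8864 to 10352 against 5835 to 6376).

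Of the 12 TCA cycle members 8 were higher and 4 lower, beside 47.6% and 52.4% of all listed genes. IDH2, the mitochondrial NADP-dependent isocitrate dehydrogenase, was the highest, with 4491, 4743 and 4299 normalized counts in DU145-TFEB and 2665, 2327 and 2579 in DU145-vector. IDH3G, a regulatory subunit of the NAD-dependent enzyme, counted 740, 833 and 732 against 495, 459 and 473, and OGDH, the oxoglutarate dehydrogenase, 3901, 3874 and 3766 against 2524, 2173 and 2531. The log2 fold changes of IDH2, IDH3G and OGDH were 0.84 (SE 0.076), 0.69 (SE 0.092) and 0.68 (SE 0.078). With the trend removed all 3 turned to -0.04, -0.31 and -0.06, and the adjusted p of IDH2 and OGDH were 0.52 and 0.405. IDH3G shares 10.2% of its exon bases with SSR4 on the other strand.

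The lowest TCA member was SUCLA2, the ATP-forming beta subunit of succinyl-CoA ligase, while its partner SUCLG1, the alpha subunit, was higher. SUCLA2 counted 350, 331 and 342 against 692, 813 and 733, a log2 fold change of -1.12 (SE 0.097, limma, adjusted p = 7.93e-06). SUCLG1 counted 1324, 1515 and 1244 against 1094, 1107 and 1135, a log2 fold change of 0.29 (SE 0.088). On the scale without the trend SUCLA2 was at -0.09 with an adjusted p of 0.451. SUCLG1, whose transcripts hold 43.9% GC, was at 0.74, the highest TCA value on that scale. FH, the fumarase, likewise stayed above 0, at 0.27 and 0.32.

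MDH1 and IDH1, the cytosolic malate and isocitrate dehydrogenases, were lower at -0.61 and -0.41, and IDH3A, the catalytic subunit of the NAD-dependent enzyme, at -0.52. These became -0.03, 0.10 and 0.15 with the trend removed, with adjusted p from 0.123 to 0.665. IDH1 also lost its call with DESeq2 (-0.17, adjusted p = 0.0848) and IDH3A with quantile normalization (-0.13, adjusted p = 0.182). MDH2, the mitochondrial form, was at 0.62, IDH3B at 0.44 and DLST, the succinyltransferase, at 0.21, and these turned to -0.03, -0.29 and -0.18. IDH3A shares 38.2% of its exon bases with ACSBG1 on the other strand. The directions in the TCA cycle thus depended on the GC and length trend, with 8 of the 12 members changing sign when it was removed and 11 of 12 lying above the median of all listed genes.

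The phosphoglucomutase and hexosamine genes held 3 of the 4 DEGs, PGM5 being higher and UAP1 and PGM3 lower. Among all listed genes 2.54% were DEGs with higher counts and 16.5% DEGs with lower counts. The route from fructose-6-phosphate to UDP-GlcNAc runs through GFPT1, GNPNAT1, PGM3 and UAP1, and all 4 were lower in DU145-TFEB, GNPNAT1 not with the trend removed. UAP1 (chr1:162561506-162599842, GRCh38), the pyrophosphorylase that makes UDP-GlcNAc, counted 1459, 1740 and 1689 in DU145-TFEB and 5512, 5535 and 5323 in DU145-vector, 3.35-fold higher in the vector cells. No library of one group came near the other. The log2 fold change of UAP1 was -1.75 (SE 0.080, limma, adjusted p = 2.30e-06), and it was -1.5 with DESeq2 and -1.19, short of the DEG cutoff, with the trend removed.

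PGM3 (chr6:83161150-83193936), the phosphoacetylglucosamine mutase before UAP1, counted 335, 268 and 411 against 1025, 1060 and 1072. Its log2 fold change was -1.66 (SE 0.143, limma), -1.41 with DESeq2 and -0.76 with the trend removed, the latter 2 short of the DEG cutoff. PGM3 shares 14.8% of its exon bases with DOP1A on the other strand, which itself was at 14.6 to 29.5 normalized counts against 119.6 to 130.7. GFPT1, the rate-limiting transaminase of the pathway, counted 1969, 1659 and 2121 against 4677, 4403 and 4517, a log2 fold change of -1.25 that shrank to -0.08 (adjusted p = 0.342) with the trend removed. GNPNAT1, the acetyltransferase, was at -0.50 and turned to 0.36, and 35.6% of its exon bases are shared with the antisense gene AL139317.3. Of the 4 enzymes, UAP1 and PGM3 thus kept a call with lower counts on both scales. Among all listed genes 52.4% were called lower, and 54.0% with the trend removed.

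**Figure D4:**
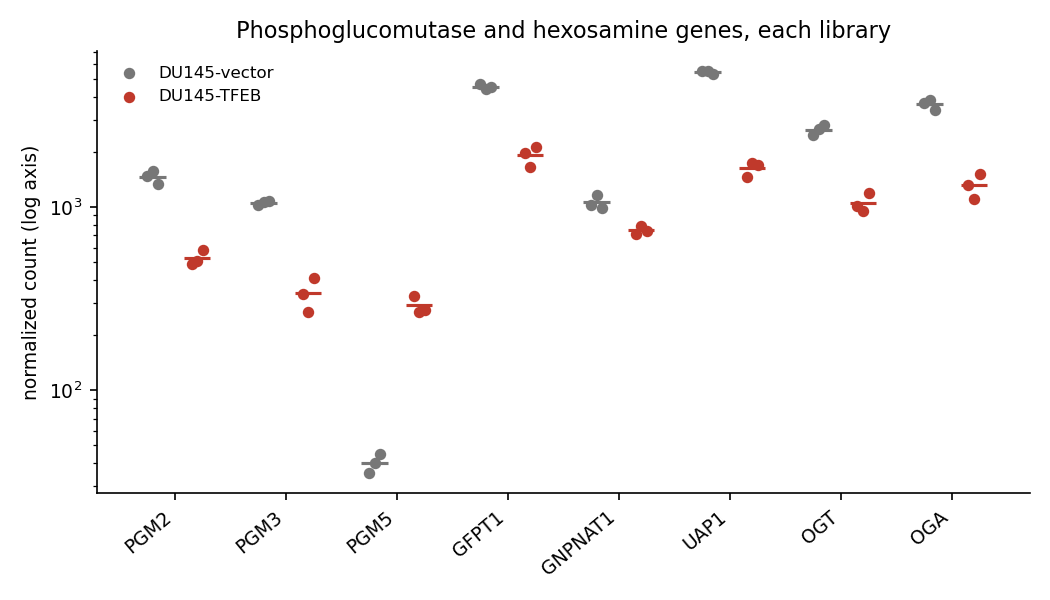
Normalized counts (y axis, log scale) are plotted for the 8 phosphoglucomutase and hexosamine members in every library, grey for DU145-vector and red for DU145-TFEB, with a line at the mean of 3. The red points lie below the grey ones in 7 genes and above them in PGM5, where 268 to 328 stand against 35.3 to 45.

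The enzymes that add and remove the O-GlcNAc mark on proteins both fell. OGT, which adds O-GlcNAc, counted 1015, 945 and 1185 against 2456, 2679 and 2794, a log2 fold change of -1.34 (SE 0.097). OGA, which removes it, counted 1317, 1107 and 1519 against 3674, 3854 and 3376, a log2 fold change of -1.48 (SE 0.113). Both were called lower with the trend removed, at -0.58 and -0.88. The ratio of OGT to OGA was 0.771, 0.854 and 0.780 in DU145-TFEB and 0.669, 0.695 and 0.828 in DU145-vector, so the groups overlapped (exact two-sided permutation p = 0.3). The log2 ratio differed by 0.29 with the trend removed, and then the groups did not overlap (exact permutation p = 0.1).

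The other phosphoglucomutases moved in opposite directions. PGM2, which acts chiefly on pentose phosphates, counted 487, 509 and 582 against 1468, 1568 and 1327, a log2 fold change of -1.47 (SE 0.10) and of -0.98 with the trend removed. PGM5 (chr9:68328308-68531061), a structural protein of cell junctions that lacks the mutase activity of its relatives, counted 328, 268 and 274 in DU145-TFEB and 35.29, 39.99 and 45 in DU145-vector. This was a 7.23-fold difference, with a log2 fold change of 2.83 (SE 0.162, limma, adjusted p = 2.42e-06) and of 3.01 with the trend removed. Its copy PGM5P2 went the other way, with 120, 65.5 and 153 normalized counts against 225, 414 and 304, so the counts of the 2 may share reads and are uncertain. Without PGM5 the median of the other 7 members was -1.47, and -0.76 with the trend removed. Their transcripts hold 38.8% to 44.3% GC, and the median of all listed genes below 45% GC was -1.26 before the trend was removed.

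Both listed members of the pentose phosphate pathway belong to its non-oxidative branch and were higher, TALDO1 not with the trend removed. TKT, the transketolase, counted 19121, 19508 and 17934 in DU145-TFEB and 11176, 10433 and 11796 in DU145-vector, a log2 fold change of 0.76 (SE 0.071, limma, adjusted p = 1.17e-05). TALDO1, the transaldolase, counted 6511, 7497 and 6122 against 4839, 4475 and 4984, a log2 fold change of 0.49 (SE 0.087). TKT was still higher with the trend removed, at 0.21, and TALDO1 turned to -0.27.

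Ratios of isoenzymes within a library do not depend on its size factor. Of 14 pairs, both genes were listed for 8, and the groups did not overlap in 4 of these, or in 6 with the trend removed. The like share among other pairs of listed genes was not analysed here. PFKP over PFKL was 1.63, 1.79 and 1.67 in DU145-TFEB and 3.70, 3.73 and 3.69 in DU145-vector, a difference of -1.13 on the log2 scale. This pair, whose genes both have a high GC content (57.7% and 64.0%), kept its difference with the trend removed, at -1.01. An exact permutation test (two-sided) gave p = 0.1, the least that 3 against 3 can reach, and 0.2 after adjustment over the 8 pairs.

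The other 3 ratios without overlap set a GC-rich gene against a GC-poor partner. MDH2 over MDH1, the mitochondrial over the cytosolic enzyme, was 2.80, 2.92 and 2.48 against 1.16, 1.07 and 1.27, a log2 difference of 1.23. IDH2 over IDH1 was 2.60, 2.78 and 2.55 against 1.20, 0.986 and 1.15, a log2 difference of 1.25. IDH3A over IDH3G was 0.743, 0.658 and 0.760 against 1.56, 1.69 and 1.73, a log2 difference of -1.20. With the trend removed the differences were -0.003, -0.14 and 0.46, so none of these 3 kept its direction. PFKM over PFKL, PFKFB4 over PFKFB3 and ENO2 over ENO1 overlapped between the groups, with log2 differences of -0.08, 0.13 and -0.10 (exact permutation p from 0.2 to 0.7, 0.32 to 0.7 after adjustment). With the trend removed PFKM over PFKL (0.62) and PFKFB4 over PFKFB3 (0.29) no longer overlapped, while ENO2 over ENO1 (-0.25) still did.

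**Figure D5:**
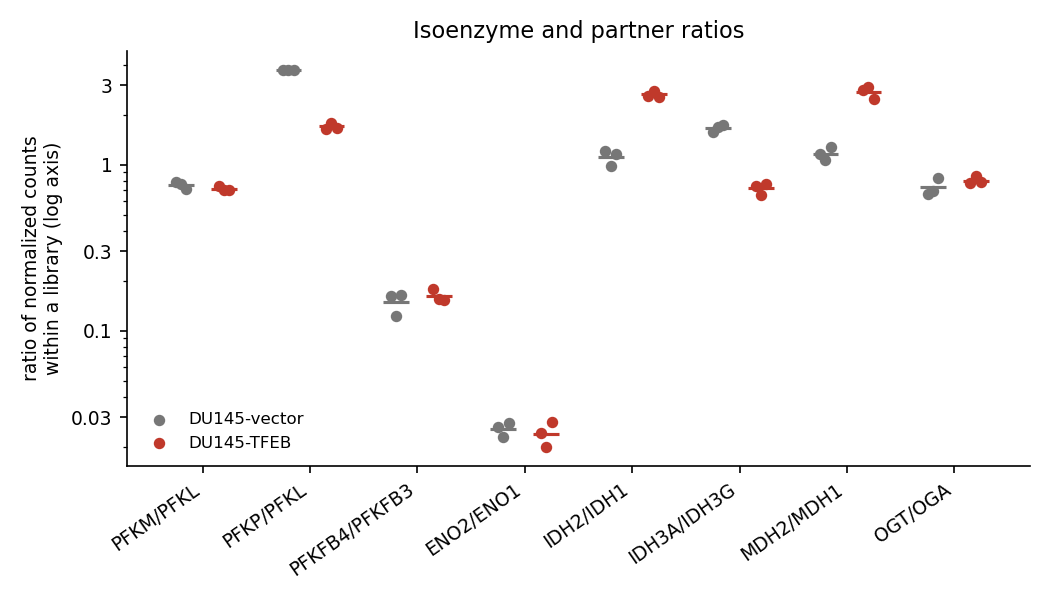
The ratio of normalized counts of 2 genes within a library (y axis, log scale) is plotted for 8 pairs, grey for DU145-vector and red for DU145-TFEB, with a line at the geometric mean of 3. PFKP over PFKL sits at 1.63 to 1.79 in DU145-TFEB against 3.69 to 3.73, and IDH2/IDH1, IDH3A/IDH3G and MDH2/MDH1 are also apart.

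A wider list of 88 transporters, paralogs, assembly factors and side enzymes of the same pathways held 51 listed genes, of which 34 were higher and 17 lower (limma, adjusted p below 0.05), beside 47.6% and 52.4% of all listed genes. With the trend removed 10 were called higher and 24 lower, beside 15.0% and 54.0%. The median log2 fold change was 0.47 and became -0.16. Among 5 transporters, SLC2A4, the insulin-responsive glucose carrier, was highest at 1.13 and SLC16A1, a lactate and pyruvate carrier, lowest at -1.38. SLC2A4 was at 0.23 with the trend removed and was no longer called (adjusted p = 0.303, limma). SLC16A1 counted 770, 854 and 945 in DU145-TFEB and 2169, 2408 and 2112 in DU145-vector and was at -0.96 with the trend removed. Around glycolysis, PC, the pyruvate carboxylase, was at 0.83 (-0.16 with the trend removed, not called) and FBP2, a fructose bisphosphatase with few reads, at -1.43. Among 6 genes around pyruvate dehydrogenase, the kinase PDK4 was at 1.59 and the lipoyltransferase LIPT1 at -1.23. PDK4 counted 44.19, 20.02 and 63.34 against 24.5, 8.78 and 8, so its groups overlapped.

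Around the TCA cycle, SDHAF4, an assembly factor of succinate dehydrogenase, was at 1.06 and the malic enzyme ME2 at -0.88. SDHAF4 was at 1.39 with the trend removed and ME2 turned to 0.20 (adjusted p = 0.114, limma). In the pentose phosphate list, H6PD, the endoplasmic reticulum hexose-6-phosphate dehydrogenase, was at 1.15 and PRPS2, a phosphoribosyl pyrophosphate synthetase, at -1.03. The hexosamine list ran from RENBP at 2.09, with 4.90 to 7.80 normalized counts in DU145-vector, to PGM2L1 at -2.40, with 77.9, 44.6 and 108 against 360, 406 and 394. PGM2L1, a paralog of PGM2, was lower like PGM2, and was at -1.33 with the trend removed. UAP1L1 and GFPT2, paralogs of UAP1 and GFPT1 named after their values were seen, were higher where those were lower. UAP1L1 counted 961, 952 and 978 in DU145-TFEB and 351, 316 and 339 in DU145-vector, a log2 fold change of 1.52 and of 0.53 with the trend removed, where UAP1 was at -1.19. GFPT2 counted 286, 301 and 290 against 180, 138 and 185, a log2 fold change of 0.81, and with the trend removed neither GFPT2 (0.21, adjusted p = 0.153, limma) nor GFPT1 was called.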

How the data were processed

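The 6 libraries, 3 of DU145-TFEB and 3 of DU145-vector by the sample labels, were sequenced as RNA. The libraries were made from polyA RNA with the NEBNext Ultra kit. Per the submitters' processing notes, CASAVA 1.8, HISAT2 2.1.0 and edgeR were used with GRCh38, and the study's methods name DESeq2. The counting program, annotation and strand setting are not given in the sources used here. Gene positions equal those of GENCODE 29 for 10531 of 10542 genes.

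The authors deposited a normalized count signal, the reads of each gene divided by 1 size factor per library, for which 100% of values came back as whole reads within 0.1. The deposited group means, fold changes and p-values of the authors' own comparison were not used, except to see that each listed gene has an adjusted p below 0.05.

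The members and lists were chosen with earlier results of these data known. limma 3.58.1 (R 4.3.3), with a mean-variance trend and no block, was fitted to log2(normalized count + 1) of all listed genes, on which scale fold changes of low genes are understated. The minimum mean of 1 removed 0 genes. The cutoffs for DEGs were 0.05 for the adjusted p and 1.5 for the size of the log2 fold change. The recovered reads were also tested with edgeR 4.0.16 and DESeq2 1.42.0. The GC and length trend was removed by loess (span 0.5) from each library, for 10537 genes with a GC content from GENCODE 29. Ratios were tested by an exact two-sided permutation test. Within a group the libraries were further apart than counting error gives (chi-square per gene from 2.97 to 27.2), and each counted as 1 replicate. Tested on simulated data for the 10542 genes, limma recovered 193 of 200 changed genes and called 7 unchanged ones. That simulation had few changed genes, none of low count, 1 fixed dispersion and no GC trend. It checks that the code runs properly and cannot give error rates for these libraries. The genes named were TFEB, the DEGs among the members, the 3 highest and 3 lowest members of each pathway, the isoenzyme pairs, and the highest and lowest of each wider list. Other members were given by their log2 fold change, and some also by their values. Alternatives covered the pseudocount, a minimum of 10 reads, scaling, the tool, the replicate block, the trend, the fold cutoff and each library left out in turn.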

Additional observations from a re-analysis of the deposited data

How the results depend on the processing

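The listed genes are a selection made on these libraries, 3 per group, and the read totals cover them alone, so neither counts of calls nor the scaling stand for all expressed genes. The median log2 fold change of all listed genes, -0.36, moved by 0.24 with DESeq2, 0.18 with upper quartile and 0.33 with quantile normalization, and directions of members with small changes are relative to it. Each member had at least 36 reads in every library, the fewest for PGM5 in DU145-vector, where counting error is largest relative to the value.

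The replicate block left 38 of the 39 members with their direction and call and took the call from GAPDH (18 members higher in place of 19), and left the medians of the pathways in the same places. Same-numbered libraries of the groups did not deviate together (correlations of -0.02, -0.25 and -0.14), so the numbers were not taken as pairs. With DESeq2 37 members kept direction and call, with edgeR, TMM, library size and upper quartile 38 each, with quantile normalization 34, and with either pseudocount or the minimum of 10 reads 39. With the GC and length trend removed 19 did, 5 became weaker and 15 reversed, and with the replicate block added 18 did. Reversed means a change of sign. GPI, IDH1, IDH2, IDH3A, OGDH and MDH2 changed sign but were not called with the trend removed (adjusted p from 0.123 to 0.583, limma). The cause of the changes below was not tested.

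Members called higher numbered 8 with the trend removed, with and without the replicate block, against 19. Members past the fold cutoff and lower numbered 5 by library size, 1 with upper quartile, quantile or DESeq2, 0 with the trend removed (with or without the replicate block) and 9 at a cutoff of 1, against 3, and from 2 to 5 with a library left out (5 without DU145-TFEB replicate 3 and 5 without DU145-vector replicate 3).

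The glycolysis median (-0.07) was 0.011 with TMM and 0.010 with edgeR, 0.11 with upper quartile, 0.17 with DESeq2, -0.22 with quantile and -0.41 with the trend removed, and from -0.175 to -0.012 with a library left out, the former without DU145-vector replicate 2. That of pyruvate dehydrogenase (-0.80) was -0.72 with TMM and edgeR, -0.62 with upper quartile, -0.69 with quantile, -0.56 with DESeq2 and -0.16 with the trend removed. That of the TCA cycle (0.28) was 0.46 with upper quartile, 0.46 with quantile, 0.52 with DESeq2 and -0.036 with the trend removed. The hexosamine median (-1.40) was -1.22 with upper quartile, -1.21 with quantile, -1.16 with DESeq2 and -0.67 with the trend removed, and the pentose phosphate one (0.63) 0.80, 0.46, 0.87 and -0.031. The replicate block did not move the values with the trend removed.

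Reversed log2 fold changes with the trend removed, with and without the replicate block, were -0.091 for GPI, -0.34 for PFKL, -0.62 for GAPDH, -0.24 for ENO1, -0.49 for ENO2, 0.10 for IDH1, -0.041 for IDH2, 0.15 for IDH3A, -0.29 for IDH3B, -0.31 for IDH3G, -0.062 for OGDH, -0.18 for DLST, -0.031 for MDH2, 0.36 for GNPNAT1 and -0.27 for TALDO1. Quantile normalization reversed PFKFB4 (0.07), GAPDH (-0.35) and ENO1 (-0.14). Of the ratios, the trend removal reversed PFKM/PFKL (0.62), IDH2/IDH1 (-0.14) and IDH3A/IDH3G (0.46). MDH2/MDH1 lost its difference (-0.003, exact permutation p = 0.9), and its groups then overlapped. With a library left out PFKFB4/PFKFB3 ranged from -0.008 to 0.20, its lowest without DU145-vector replicate 2, and ENO2/ENO1 from -0.214 to 0.028, its highest without DU145-TFEB replicate 2.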
